A study of Mus musculus with 12 samples.

Results

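The genes described here are the collagens, the matrix metalloproteinases (Mmp), their tissue inhibitors (Timp) and the Adamts proteases of NU1 cells, a line of normal mouse urothelium. They were taken by symbol: every row of the count table named Col, number, a, number, or Mmp, Timp or Adamts with a number. This gave 89 of the 23337 gene symbols: 43 collagen chains, 23 Mmp genes, 4 Timp genes and 19 Adamts genes. The rule itself uses no measured value.

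Collagens are proteins of the extracellular matrix whose chains wind into triple helices. Fibrillar collagens form the fibres of connective tissue, collagen IV forms the sheet of the basement membrane under every epithelium, and collagens VII and XVII anchor epithelial cells to it. Matrix metalloproteinases cut matrix proteins and are held in check by the Timp proteins. Adamts proteases are secreted relatives that cut proteoglycans or trim procollagens. In the bladder wall most fibrillar collagen is made by stromal cells, while the urothelium rests on a basement membrane.

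RNA sequencing was done on 12 libraries in 4 groups of 3, from experiments 5, 7 and 9, each of which gave 1 library of every group and is a batch of its own in the labels. Proliferating cells grew in a medium with 15% chelated serum and 5 ng/ml EGF. Quiescent cells, labelled day 7, were grown to confluence in that medium, which then also held 1 µM rosiglitazone, an agonist of PPAR gamma, and 0.5 µM erlotinib, an inhibitor of the EGF receptor kinase. Cells of either state carried a control hairpin (shNT, genotype label WT) or a hairpin against the cohesin subunit gene Stag2 (sh4, genotype label Stag2-KD). All groups come from 1 spontaneously immortalised line, and the knockdown from 1 hairpin. The comparisons ask how the state and the knockdown change expression.

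Library totals ran from 14524429 to 21987539 counts. Levels are given as CPM, the count scaled to the TMM-normalised library total. Stag2 was 113 to 145.5 CPM in proliferating and 107.5 to 128 CPM in quiescent control libraries, and 24.6 to 33.3 and 9.43 to 15.3 CPM in the knockdown libraries, so every library matched its hairpin label. Markers of urothelium summed to 13150 to 24130 CPM, with keratins 7, 8, 18, 19 and 20 high, but the basal gene Trp63 was at 0 and the plaque genes were low, with at most 0.0453 CPM of Upk3a, 1.45 of Upk2, 2.23 of Upk1b, 3.94 of Upk1a and 8.91 of Upk3b. Of other cell types, leukocyte markers summed to 15.6 to 170 CPM, mostly Csf1r (10.5 to 163 CPM), with Cd68 at 1.55 to 9.36 CPM. Fibroblast markers summed to 11.7 to 23.3 CPM, mostly Twist1 (10.6 to 17.5 CPM), with Lum at 0 and Vim at no more than 1.01 CPM. Smooth muscle markers stayed at or under 0.895 CPM and endothelial markers at or under 0.762 CPM.

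Several of these genes lie in pairs that start back to back, and the sequences between or before their starts are shown here because such neighbours are compared in the values that follow. Col4a1 and Col4a2, the chains of the most common collagen IV trimer, overlap by 22 bases at their starts (chr8:11312805-11312826, GRCm38). Col4a4 and Col4a3 are separated by 71 bases (chr1:82586850-82586920, plus strand printed), a stretch with 69% G and C:

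Col4a4-Col4a3 gap: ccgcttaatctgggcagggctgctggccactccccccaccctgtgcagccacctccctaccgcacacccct

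Col4a6 and Col4a5 on chromosome X start 1308 bases apart. For Col7a1 and Timp1, which both fell with quiescence in control and in knockdown cells, the 250 bases before the start are shown from the RefSeq promoter table for GRCm38.p6. The Col7a1 stretch (chr9:108953336-108953585, plus strand) lies between genes in GENCODE M21, and the Timp1 stretch (chrX:20869916-20870165, plus strand) lies in an intron of Syn1, which is transcribed from the other strand:

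Col7a1 upstream: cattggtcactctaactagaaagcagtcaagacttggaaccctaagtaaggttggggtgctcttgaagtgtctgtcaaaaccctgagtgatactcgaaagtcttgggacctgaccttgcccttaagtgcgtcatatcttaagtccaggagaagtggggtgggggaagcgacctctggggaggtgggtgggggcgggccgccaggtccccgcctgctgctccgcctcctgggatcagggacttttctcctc

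Timp1 upstream: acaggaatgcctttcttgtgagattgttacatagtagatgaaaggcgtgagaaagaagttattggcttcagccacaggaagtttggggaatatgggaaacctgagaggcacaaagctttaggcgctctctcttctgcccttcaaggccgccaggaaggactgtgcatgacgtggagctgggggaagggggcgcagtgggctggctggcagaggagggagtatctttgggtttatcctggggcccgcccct

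The RefSeq windows, which run from 250 bases before to 50 after a start, were searched on both strands for the AP-1 motif (TGAGTCA or TGACTCA) and the CRE motif (TGACGTCA), neither of which contains the other. AP-1 was found in 5.2% of all 32851 windows and in 8 of the 73 windows of members, which belong to 67 members. CRE was found in 1.79% of all windows and in 1 of the 73 windows of members. Of the 24 members with a window that could be tested, AP-1 was found in Col6a1 and Mmp7, and CRE in none. Neither motif is in the Col7a1 or Timp1 window. The Mmp7 match lies at -63 to -57 from its start and is shown in capitals (chr9:7692012-7692048, plus strand), because Mmp7 had the largest rise with quiescence in control cells:

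Mmp7 promoter: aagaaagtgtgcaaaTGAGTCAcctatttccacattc

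A match describes the letters only and shows no bound factor.

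Of the 89 genes, 18 had no count in any library, 36 had counts too low to test, and 35 passed the filter on low counts and were tested. The 18 without a count include Col1a2 and Col3a1, chains of the main stromal fibres, the collagenase genes Mmp1a and Mmp1b, the stromelysin gene Mmp3 and Timp4. A count of 0 allows up to 3 counts, which is 0.136 to 0.207 CPM depending on the library. Col1a1 had 1 to 9 counts per library, the collagenase gene Mmp13 1 to 10, and the gelatinase gene Mmp2 0 to 8. The 36 untested genes together held 783 counts, and the highest in 1 library was 69, for Adamts9 in quiescent control cells of experiment 9. These names of undetected and untested genes were chosen after their values were seen.

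Levels of different genes are compared only as CPM per kb of exon, with exon lengths from GENCODE M21. Averaged over the 12 libraries, the highest level was that of Timp2 (271 CPM per kb), an inhibitor that also takes part in activating pro-Mmp2. It was followed by the membrane-anchored proteases Mmp14 (146 CPM per kb) and Mmp15 (93.4 CPM per kb), and by the basement membrane collagen Col18a1 (80.5 CPM per kb), the source of endostatin. Next came Col4a2 (55.1 CPM per kb), Col4a1 (47.7 CPM per kb), the proteoglycan-cutting Adamts1 (40.2 CPM per kb) and Col7a1 (33.9 CPM per kb), the chain of anchoring fibrils. The 5 genes with the most counts (Timp2, Mmp14, Col18a1, Mmp15 and Col4a2) held 74.5% of all counts of the 89 genes. The order was not fixed: in quiescent control cells Mmp14 (168 CPM per kb ± 41.0, SD, n = 3) and Mmp15 (163 CPM per kb ± 45.6, SD, n = 3) did not differ beyond their spread, while in proliferating control cells Mmp15 stood at 37.99 CPM per kb ± 30.1 (SD, n = 3) and Mmp14 at 118.5 CPM per kb ± 44.7 (SD, n = 3).

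**Figure D1:**
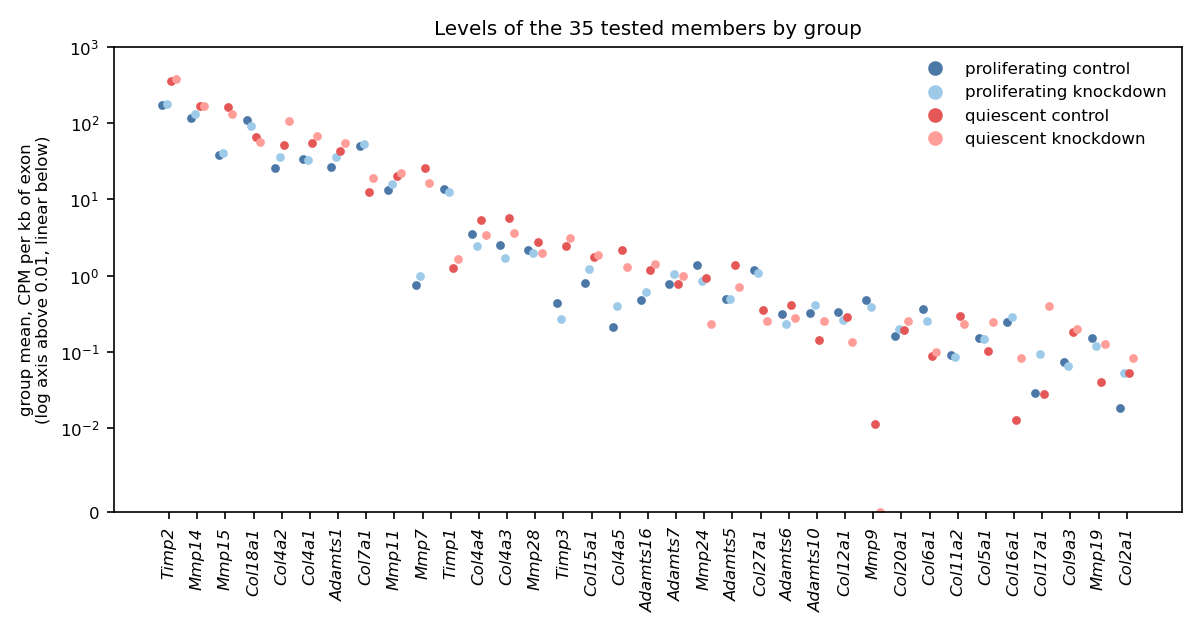
Mean level of each of the 35 tested genes in each of the 4 groups (points, CPM per kb of exon, log axis above 0.01 and linear below), ordered by the mean over the 12 libraries. Timp2 leads at 271 CPM per kb, and Mmp9 is the only tested gene at 0 in a whole group, quiescent knockdown.

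With quiescence these genes moved in both directions. Rosiglitazone and erlotinib were in the medium of every quiescent library and of no proliferating one. Their effects, that of confluence and that of the quiescent state cannot be told apart here. In control cells 13 of the 35 tested genes passed an adjusted p of 0.05 in edgeR, the tool behind every adjusted p here that is not credited to DESeq2, 9 higher and 4 lower (37.1% of the genes, against a background of 20.0% of all 12406 tested genes, 8.33% higher and 11.7% lower). The higher genes were Mmp7, Col4a5, Mmp15, Col11a2, Adamts5, Timp2, Col4a2, Adamts1 and Mmp11, and the lower ones Mmp9, Col16a1, Timp1 and Col7a1. The median log2 fold change was 0.51 over the 35 genes and 0.0047 over all tested genes. With the experiment number added as a replicate block, 16 were higher and 7 lower (background 35.3%, of which 16.8% higher and 18.5% lower). In knockdown cells 6 genes were higher and 4 lower (background 18.4%, of which 7.59% higher and 10.8% lower), and with the block 14 higher and 7 lower (background 33.0%, of which 15.9% higher and 17.2% lower). Both comparisons are of bulk RNA, in which fewer cells of a kind and less RNA per cell cannot be told apart. Without proliferating control of experiment 9 the count in control cells was 6 (12.4% of all genes in that fit), and it was 7 without that of experiment 7 (11% of all genes) and 8 without quiescent control of experiment 5 (11.7% of all genes). In knockdown cells it was 4 without proliferating knockdown of experiment 7 (10.5% of all genes), 4 without quiescent knockdown of experiment 5 (10.8%) and 5 without that of experiment 9 (9.45%).

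Fibroblast markers summed to 16.2 to 23.3 CPM in proliferating and 11.7 to 15.9 CPM in quiescent control cells, with Lum at 0 in both. Of these markers S100a4 fell in control cells (-2.10, adjusted p 0.00505) and in knockdown cells (-2.33, adjusted p 0.00355), and Pdgfra differed by -1.88 in control cells (adjusted p 0.101, with the block 0.016). Leukocyte markers summed to 15.6 to 33.3 CPM in proliferating and 39.7 to 61.9 CPM in quiescent control cells, and to 26.3 to 55.6 and 110 to 170 CPM in knockdown cells, without overlap in either. Csf1r, which made up most of that sum, differed by 1.01 in control cells (adjusted p 0.0982) and rose by 1.81 in knockdown cells (adjusted p 0.011). Cd68, the other tested leukocyte marker, differed by 0.56 in control cells (adjusted p 0.562) and by 0.01 in knockdown cells (adjusted p 0.992), while Emr1 and Cd3e were at 0. The part of either marker list in these changes was not tested.

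**Figure D2:**
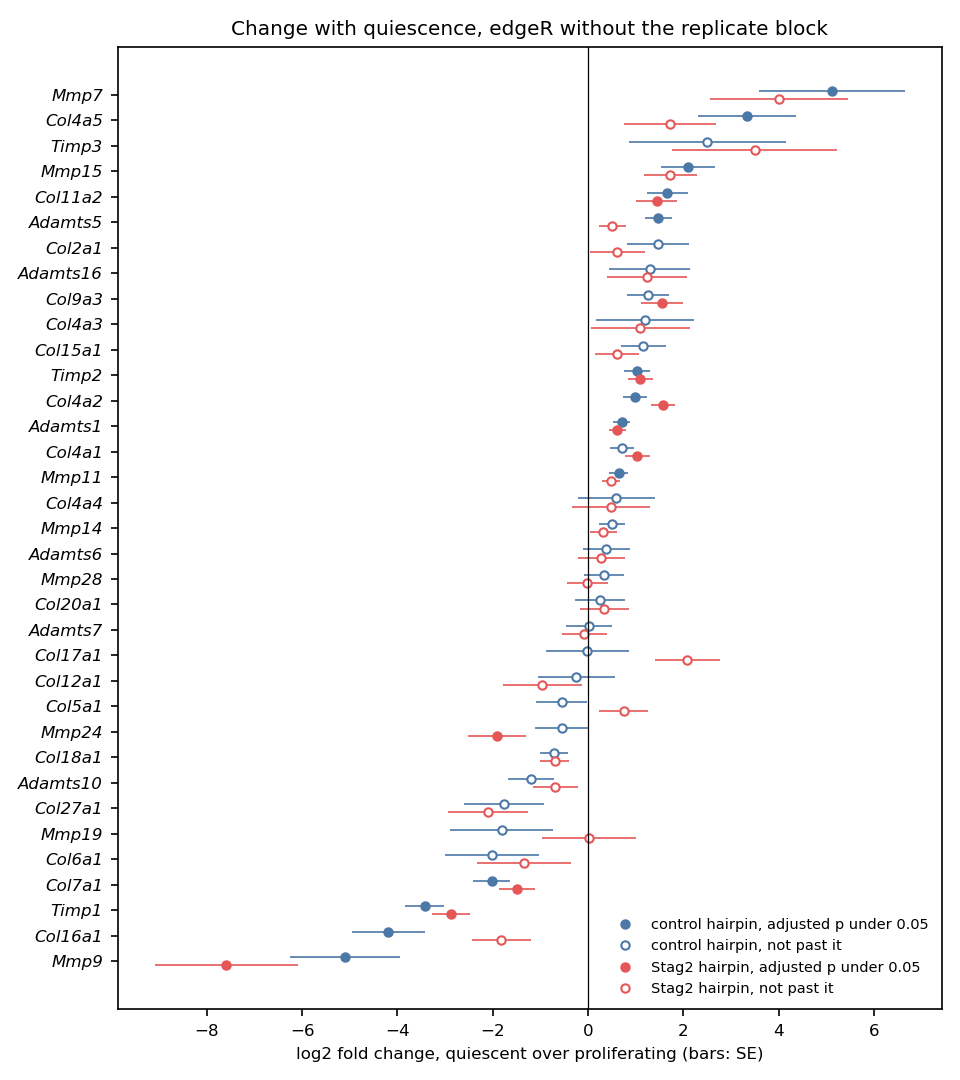
Log2 fold change of quiescent over proliferating cells for the 35 tested genes (x axis, edgeR without the replicate block, bars are SE), in cells with the control hairpin (blue) and the Stag2 hairpin (red). Filled points passed an adjusted p of 0.05: 13 in control and 10 in knockdown cells, from Mmp7 at the top to Mmp9 at the bottom.

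Of the 5 tested chains of collagen IV, 2 rose with quiescence in control cells (Col4a2 and Col4a5) and 2 in knockdown cells (Col4a2 and Col4a1). This is 40% in each, against 8.33% and 7.59% of all tested genes that were higher. With the block 4 rose in each (80%, background 16.8% and 15.9% higher). Col4a4 passed in none of these fits (0.60 in control cells, adjusted p 0.641, with the block 0.265) and was lower in quiescence in experiment 5. Col4a2 was at 152, 222 and 141 CPM in proliferating control cells of experiments 5, 7 and 9, the order used for all triplets of values here, and at 274, 425 and 328 CPM in quiescent control cells. The 2 groups did not overlap, and Col4a2 rose with a log2 fold change of 0.99 (SE 0.26, adjusted p 0.0195). The call was lost without proliferating control of experiment 9 (adjusted p 0.0769) or quiescent control of experiment 7 (adjusted p 0.0672). In knockdown cells Col4a2 went from 159, 295.5 and 257.5 to 617, 691 and 817 CPM, a rise of 1.58 (SE 0.26, adjusted p 0.00232) that held without any 1 library.

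Its partner Col4a1 was at 240, 324 and 194 CPM in proliferating and 338, 549 and 351 CPM in quiescent control cells, without overlap. The log2 fold change of 0.71 (SE 0.25) did not pass the test without the block (adjusted p 0.0686) and did with it (0.00154). In knockdown cells Col4a1 rose from 228, 301 and 215 to 410, 628.5 and 491 CPM, by 1.04 (SE 0.25, adjusted p 0.0162), a call lost without proliferating knockdown of experiment 9 (adjusted p 0.0589) or quiescent knockdown of experiment 7 (adjusted p 0.0518). Both chains were thus higher in every quiescent library than in the proliferating library of the same hairpin and experiment.

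Col4a5, a chain of the minor collagen IV networks that is mutated in Alport syndrome, was low in growing control cells (1.57, 0.404 and 2.27 CPM) and higher in quiescent ones (8.14, 4.47 and 30.5 CPM). The quiescent library of experiment 9 stood far above the other 2. The log2 fold change was 3.34 (SE 1.03, adjusted p 0.0419), and without that library 2.15 (adjusted p 0.163). The call was also lost without proliferating control of experiment 5 (adjusted p 0.0726), 7 (0.134) or 9 (0.0769), or quiescent control of experiment 5 (0.0602). In knockdown cells its difference of 1.72 (SE 0.96) passed with the block (adjusted p 0.00258) and not without it (0.238).

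Among collagens of the basement membrane zone, Col7a1 fell in both backgrounds. Col7a1 was at 562, 562 and 426 CPM in proliferating control and 179, 152 and 51.2 CPM in quiescent control cells, so the highest quiescent library was below the lowest proliferating one. The log2 fold change was -2.02 (SE 0.38, adjusted p 0.00408) and held without any 1 library. In knockdown cells the levels went from 525, 666 and 465 to 189, 252 and 150 CPM, a change of -1.48 (SE 0.37, adjusted p 0.0191) whose call was lost without proliferating knockdown of experiment 7 (adjusted p 0.0669) or quiescent knockdown of experiment 5 (0.0682) or 9 (0.0831). The gene was the eighth by level per kb over all libraries.

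Col18a1 was at 1017, 685 and 589 CPM in proliferating and 597, 441 and 363 CPM in quiescent control cells. The experiments differed about as much as the states, so the groups overlapped, and its difference of -0.71 (SE 0.30) passed the test with the block (adjusted p 0.00463) and not without it (0.114). The same held in knockdown cells, where the difference was -0.70 (adjusted p 0.124, with the block 0.00884). Slc19a1 overlaps Col18a1 on the other strand. Col15a1, the third collagen of this zone, had a difference of 1.16 in control cells (adjusted p 0.103, with the block 0.00665) and was named after its values were seen.

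Col17a1, the transmembrane collagen of hemidesmosomes, was near the floor in control cells, at 0.224, 0.0577 and 0.227 CPM in proliferating and 0.207, 0.0612 and 0.239 CPM in quiescent ones. With the knockdown it went from 0.350, 0.298 and 1.03 CPM to 3.94, 0.895 and 2.34 CPM with quiescence. Its difference there was 2.09 (SE 0.68, adjusted p 0.0532, with the block 0.0044). It was past the threshold without proliferating knockdown of experiment 9 (2.87, adjusted p 0.0391) or quiescent knockdown of experiment 7 (2.48, adjusted p 0.032).

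Of the 11 fibrillar chains 4 could be tested, and 1 of them, Col11a2, a chain better known from cartilage, passed. That share of 25% is near the 20.0% of all tested genes called in control cells, so it sets fibrillar chains apart in no way. Col11a2 had 13, 10 and 10 counts in proliferating control and 26, 48 and 21 counts in quiescent control libraries, without overlap (log2 fold change 1.66, SE 0.43, adjusted p 0.0205). Too few proliferating libraries reached the filter on low counts, so Col11a2 was tested because of its quiescent ones. It rose by 1.44 in knockdown cells (SE 0.43, adjusted p 0.0401), where it held in 5 of the 12 fits without 1 library, against 9 of 12 in control cells. In control cells it was lost without proliferating control of experiment 7 (adjusted p 0.0762) or 9 (0.071) or quiescent control of experiment 7 (0.0781). In knockdown cells the fits that lost it left out proliferating control 7, proliferating knockdown 7 or 9, quiescent control 5 or any quiescent knockdown library, with adjusted p from 0.0532 to 0.135.

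The other named fibrillar chains, Col27a1 and Col5a1, did not pass without the block. Col27a1 was at 28.3, 12.9 and 5.17 CPM in proliferating and 6.76, 5.75 and 1.13 CPM in quiescent control cells. Experiment 5 was highest and experiment 9 lowest in both states, so the groups overlapped although each experiment went the same way. Its difference of -1.77 (SE 0.84) had an adjusted p in edgeR of 0.157 without and 0.000268 with the block, and in knockdown cells the difference was -2.10 (adjusted p 0.109, with the block 0.00018). Col5a1 was at 0.490 to 1.33 CPM in control cells and had a difference of -0.55 (SE 0.53, adjusted p 0.502).

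The FACIT collagens sit on the surface of other fibrils. Col16a1, which is also found near basement membranes, was at 1.12, 1.85 and 2.05 CPM in proliferating control cells and nearly absent in quiescent ones, at 0.138, 0.122 and 0 CPM. These are 88 counts against 4, a ratio of 19.9 (95% interval 7.49 to 74.5, counting error only), and edgeR gave a log2 fold change of -4.19 (SE 0.77, adjusted p 0.00368) that held without any 1 library. With Stag2 knocked down its levels went from 1.51, 1.61 and 2.70 to 0.181, 0.656 and 0.820 CPM (difference -1.82, SE 0.62, adjusted p 0.0626, with the block 0.0105). Without quiescent control of experiment 9 the adjusted p there was 0.0408.

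Col9a3 had 5, 4 and 6 counts in proliferating and 9, 14 and 10 counts in quiescent control libraries, a difference of 1.26 (SE 0.44, adjusted p 0.063, with the block 0.0361). Under the Stag2 hairpin it rose by 1.56 (SE 0.44, adjusted p 0.0308) on 3 to 17 counts per library, and leaving out any 1 of the 6 knockdown libraries lost the call (adjusted p 0.0507 to 0.123). With 3 to 6 counts in every proliferating library, Col9a3 passed the filter on low counts only through quiescent libraries. It could thus enter the test only by being higher there. Col12a1 and Col20a1 differed by -0.24 (SE 0.80) and 0.26 (SE 0.52) in control cells, both within their error. Of the 6 collagen VI chains only Col6a1 could be tested, at 0 to 2.19 CPM (difference in control cells -2.01, SE 1.00, adjusted p 0.176).

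Of the secreted metalloproteinases, Mmp7 and Mmp9 moved in opposite directions. Mmp7, the matrilysin made by many epithelia, was at 0.954, 0.750 and 0.682 CPM in proliferating control cells and 3.79, 0.979 and 78.7 CPM in quiescent ones. Experiment 9 stood far above the other 2, and in experiment 7 the difference was small. Its log2 fold change was 5.12 (SE 1.53, adjusted p 0.0371). Without quiescent control of experiment 9 it was 1.57 (adjusted p 0.322). The call was also lost without proliferating control of experiment 5 (adjusted p 0.0688), 7 (0.116) or 9 (0.116). It was narrowly lost without proliferating knockdown of experiment 7 too, and held in 7 of the 12 fits without 1 library. In knockdown cells Mmp7 went from 1.17, 0.775 and 1.26 to 5.21, 3.34 and 43.5 CPM, without overlap and again with experiment 9 highest (difference 4.01, SE 1.45, adjusted p 0.0785, with the block 0.0278). It was past the threshold there without quiescent control of experiment 7 (adjusted p 0.0445) or 9 (0.0162). The antisense gene AV064505 overlaps Mmp7 on the other strand.

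Mmp9, a gelatinase that cuts collagen IV, went down to the floor. It had 60, 26 and 3 counts in proliferating control libraries and 0, 1 and 1 in quiescent ones, a ratio of 40.2 (95% interval 10.8 to 337, counting error only). The edgeR log2 fold change was -5.11 (SE 1.16, adjusted p 0.0146), and it was lost without quiescent control of experiment 5 (adjusted p 0.0544). In knockdown cells the counts were 29, 25 and 17 against 0, 0 and 0, at least 25.8-fold lower with a floor of 3 counts over the group (adjusted p 0.00849), a call that held without any 1 library.

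Among the membrane-type enzymes, Mmp15 rose in control cells and Mmp14 did not pass the test without the block. Mmp15 was at 393, 111 and 111 CPM in proliferating control cells and 1160, 710.0 and 763 CPM in quiescent ones, without overlap. Its log2 fold change was 2.10 (SE 0.57, adjusted p 0.0245). It was lost without proliferating control of experiment 7 (adjusted p 0.0942) or 9 (0.0891) or quiescent control of experiment 5 (0.0759). In knockdown cells the levels went from 401, 137 and 110 to 685, 860 and 610 CPM (difference 1.73, SE 0.56, adjusted p 0.0526, with the block 0.00198), and 3 of the 12 fits without 1 library passed, those without proliferating control 5 (adjusted p 0.0187), proliferating control 9 (0.0473) or proliferating knockdown 5 (0.0119).

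Mmp14, the main activator of pro-Mmp2 on the cell surface, was at 1014, 556 and 549 CPM in proliferating and 1274, 933 and 800 CPM in quiescent control cells. Every experiment was higher in quiescence but the groups overlapped, since the proliferating library of experiment 5 exceeded 2 quiescent ones. The difference of 0.51 (SE 0.28) passed only with the block (adjusted p 0.223, with the block 0.0117) or without proliferating control of experiment 5 (0.86, adjusted p 0.0345). With the knockdown it was 0.32 (adjusted p 0.457, with the block 0.0687).

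Mmp24, a membrane-type enzyme best known from neurons, was at 9.87, 5.20 and 4.15 CPM in proliferating and 2.42, 6.24 and 4.47 CPM in quiescent control cells. The experiments disagreed there (difference -0.55, SE 0.56). With Stag2 knocked down it fell from 6.18, 3.87 and 1.89 to 0.363, 1.43 and 1.41 CPM (log2 fold change -1.91, SE 0.61, adjusted p 0.0485). This was just inside the threshold: the call was kept without proliferating control of experiment 5 (adjusted p 0.0436) or 9 (0.05) or proliferating knockdown of experiment 9 (0.0356), and lost without any other 1 library (0.0512 to 0.139).

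Mmp11, a secreted enzyme activated inside the cell by furin, rose in control cells from 46.7, 34.0 and 28.7 to 56.7, 51.8 and 62.4 CPM (log2 fold change 0.64, SE 0.19, adjusted p 0.0362). The groups did not overlap, but the call was lost without proliferating control of experiment 7 (adjusted p 0.118) or 9 (0.124) or quiescent control of experiment 5 (0.0805) or 9 (0.107). In knockdown cells the difference was 0.48 (SE 0.19, adjusted p 0.104, with the block 0.0436). Chchd10 overlaps Mmp11 on the other strand. Mmp28 differed by 0.33 (SE 0.42) and Mmp19 by -1.81 (SE 1.07) in control cells, neither past the test.

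The inhibitors Timp1 and Timp2 moved in opposite directions. Timp1, a secreted inhibitor often induced by growth factors, was at 17.7, 11.4 and 7.33 CPM in proliferating control cells and 1.31, 1.22 and 0.835 CPM in quiescent ones. The groups did not overlap, and the change of -3.43 (SE 0.41, adjusted p 0.000316) was alike in the 3 experiments (-3.64, -3.11 and -2.97). In knockdown cells Timp1 fell from 11.4, 14.6 and 7.00 to 1.90, 1.37 and 1.17 CPM (-2.88, SE 0.39, adjusted p 0.00104), and neither call was lost without any 1 library. Timp1 lies within Syn1, which is transcribed from the other strand.

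Timp2 was at 813, 728 and 476 CPM in proliferating control and 1716, 1449 and 954 CPM in quiescent control cells. It rose by 1.03 (SE 0.26, adjusted p 0.0192), with 1.08, 0.99 and 1.00 in the 3 experiments. Without proliferating control of experiment 7 the adjusted p was 0.0522, without that of experiment 9 it was 0.0711, and without quiescent control of experiment 5 it was 0.072. Under the Stag2 hairpin it rose from 816, 669 and 596 to 1837, 1163 and 1461 CPM (1.10, SE 0.26, adjusted p 0.0155), lost without proliferating knockdown of experiment 7 (0.058) or 9 (0.0579) or quiescent knockdown of experiment 5 (0.0651). Timp2 was thus the most abundant of all these transcripts in both states, while Timp1 was 10.8-fold lower in quiescent than in proliferating control cells. The protein-coding gene Cep295nl overlaps Timp2 on the same strand by 10141 bases.

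Timp3, a matrix-bound inhibitor named here after its values were seen, was at 2.83, 1.47 and 55.6 CPM in quiescent control cells against 0.393, 1.15 and 8.98 CPM in proliferating ones, with experiment 9 highest in both. Its difference of 2.51 (SE 1.64) passed with the block (adjusted p 0.0029) and not without it (0.303). Timp3 lies within Syn3, which is transcribed from the other strand.

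Of the proteoglycan-cutting Adamts genes, Adamts1 and Adamts5 both rose in control cells. Adamts1 went from 123, 155 and 146 to 205, 218 and 271 CPM (log2 fold change 0.71, SE 0.18, adjusted p 0.0188), without overlap. It was lost without quiescent control of experiment 9 (adjusted p 0.0715). With the knockdown it rose from 144, 194 and 230 to 315, 253 and 302.5 CPM (0.61, SE 0.18, adjusted p 0.037), and the call was lost without proliferating knockdown of experiment 5 (0.0982) or 7 (0.0914), quiescent control of experiment 7 (0.0506) or quiescent knockdown of experiment 5 (0.113) or 9 (0.11).

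Adamts5, an aggrecanase, was at 5.67, 5.94 and 4.43 CPM in proliferating and 9.66, 14.8 and 20.2 CPM in quiescent control cells. It rose by 1.48 (SE 0.28, adjusted p 0.00457), and the call held without any 1 library. In knockdown cells the difference was 0.51 (SE 0.28, adjusted p 0.229). Adamts16 was higher in quiescence in every experiment (differences 0.98, 1.91 and 1.09 in control cells) and passed only with the block (adjusted p 0.304, with the block 0.00617). Adamts7 differed by 0.02 (SE 0.48).

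**Figure D3:**
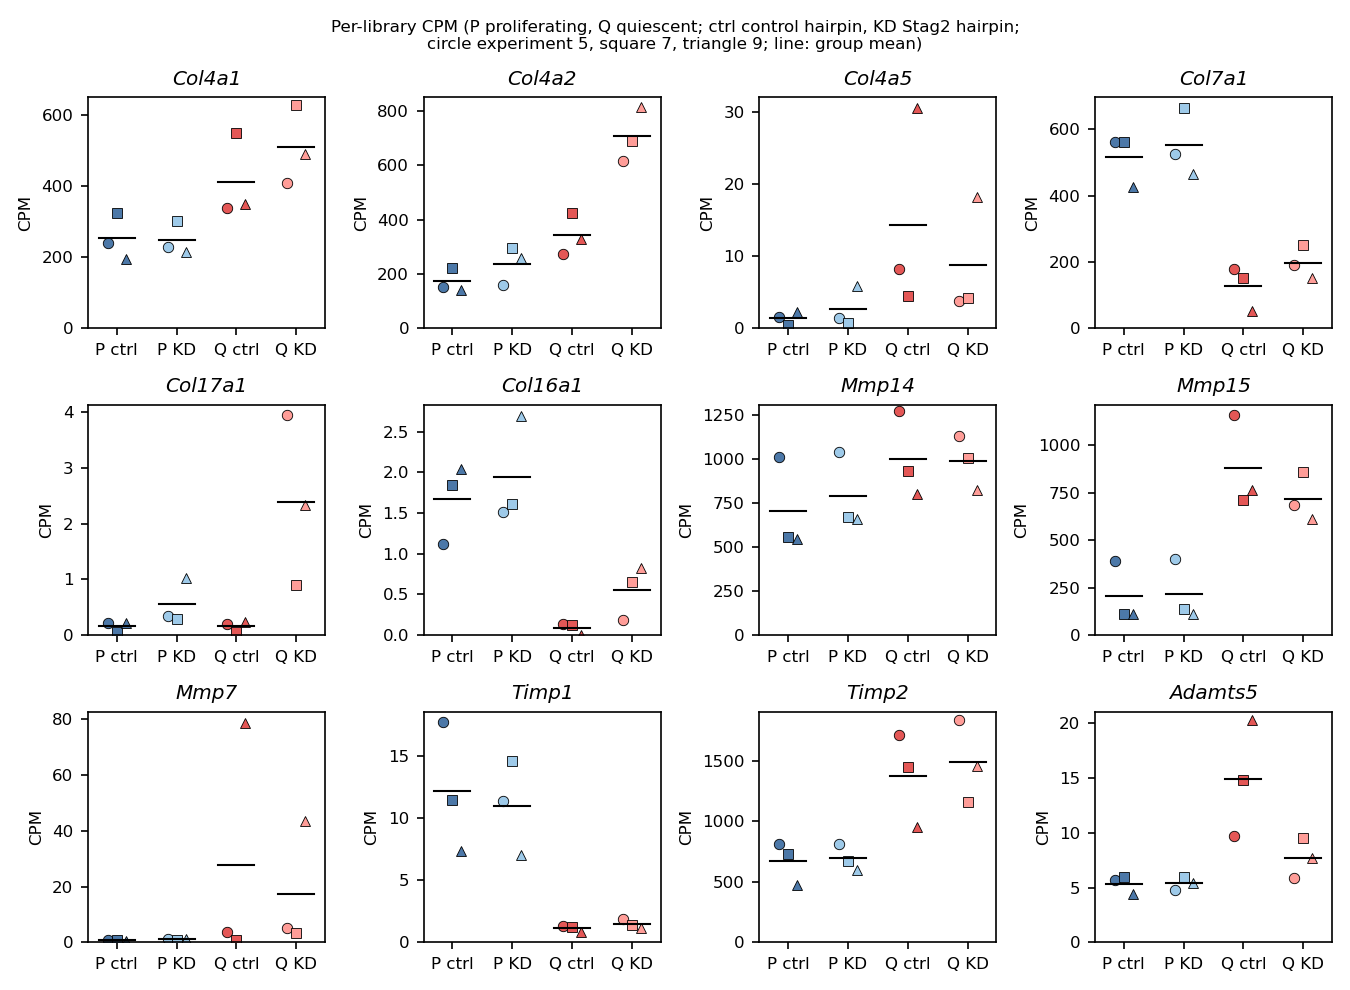
CPM of 12 of the genes in every library (y axes from 0, each panel with its own scale), with proliferating (P) and quiescent (Q) cells carrying the control (ctrl) or Stag2 (KD) hairpin. Marker shape gives the experiment and the line is the mean of 3 libraries; Col7a1 and Timp1 are lower in all quiescent libraries, Mmp7 and Col4a5 are highest in experiment 9, and Col4a2 is highest in quiescent knockdown cells.

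Genes that act on collagens and on these proteases were read in the same fit. Of 22 tested genes for folding and secretion of collagen, such as prolyl hydroxylases and the chaperone Serpinh1, 0 passed edgeR without the block in quiescent control cells (4 had an unadjusted p under 0.05, 18.2% against 34.8% of all tested genes), and with the block 6 were higher and 1 lower (31.8%, background 35.3%). Of 12 tested genes for processing and crosslinking, 1 was higher and 4 lower (41.7%, background 20.0%), and with the block 1 and 5 (50%, background 35.3%). Pcolce2, an enhancer of procollagen C-proteinase, was at 12.8 CPM ± 2.91 (SD, n = 3) in proliferating and 0.163 CPM ± 0.283 (SD, n = 3) in quiescent control cells and fell by 6.20 on the log2 scale (SE 0.89, adjusted p 0.000895). The procollagen C-proteinase gene Tll1 changed by -2.63 and the lysyl oxidase gene Loxl3 by -1.96, while Loxl4 changed by 0.96. Sparc, a collagen-binding matrix protein that is not an enzyme, changed by -1.38 (adjusted p 0.0422) and was the fourth lower one.

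Of 18 tested genes for activation and inhibition of proteases, 4 were higher and 3 lower in quiescent control cells (38.9%, background 20.0%), and with the block 6 and 3 (50%, background 35.3%). Lcn2, whose product binds Mmp9, was at 163 CPM ± 80.4 (SD, n = 3) in proliferating and 1281 CPM ± 471 (SD, n = 3) in quiescent control cells and rose by 2.98 (SE 0.44, adjusted p 0.00103). The membrane serine protease Tmprss2 changed by 1.23 and Adamtsl5 by 1.07. Plau, the urokinase gene, was at 446 CPM ± 69.7 (SD, n = 3) while proliferating and 163 CPM ± 32.8 (SD, n = 3) in quiescence, a change of -1.45 (SE 0.18, adjusted p 0.00045). The proprotein convertase Pcsk6 changed by -2.62 (adjusted p 0.000339). Serpinb2, an inhibitor of urokinase, was at 0.852 CPM ± 0.479 (SD, n = 3) in proliferating and 0 in all quiescent control libraries (adjusted p 0.0179).

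In quiescent cells with the knockdown Col4a2 and Col17a1 were higher, which passed with the experiments blocked and by DESeq2 but not in edgeR without the block. Of the 35 tested genes 0 passed edgeR without the block (background 0.435%), with 6 at an unadjusted p under 0.05 (17.1%, against 12% of all tested genes). With the block 2 passed, both higher (background 3.55%, of which 1.59% higher), and by the DESeq2 Wald test, which tested 39 of the 89 genes here, 4 passed, Col17a1 and Col4a2 higher and Adamts5 and Mmp24 lower (background 2.93%). The median log2 fold change was 0.12 over the 35 genes and 0.016 over all tested genes.

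Col4a2 was at 274, 425 and 328 CPM in quiescent control and 617, 691 and 817 CPM in quiescent knockdown cells. Every knockdown library was above every control library, by 1.17, 0.70 and 1.32 within the experiments. Its log2 fold change was 1.05 (SE 0.26, adjusted p 0.111, with the block 0.0114), and the blocked fit lost the call without experiment 5 (0.0744), 7 (0.0653) or 9 (0.13). Col4a1 was higher in each experiment too, by 0.28, 0.19 and 0.49, with a difference of 0.31 (95% interval -0.24 to 0.85, adjusted p 0.707).

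Col17a1 had 3, 1 and 4 counts in quiescent control and 87, 15 and 40 in quiescent knockdown libraries. These sum to 8 against 142 counts, a ratio of 15.1 (95% interval 7.47 to 35.7, counting error only). Its log2 fold change was 3.78 (SE 0.77, adjusted p 0.0656, with the block 0.00599), and in the fits without 1 library it ran from 3.21 to 4.17. It passed without the block once, without quiescent knockdown of experiment 7 (adjusted p 0.0454), and in the blocked fit it held without experiment 5 (0.0472) and not without 7 (0.0792) or 9 (0.105). Its level was at most 3.94 CPM.

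Adamts5 went the other way, from 9.66, 14.8 and 20.2 CPM to 5.85, 9.48 and 7.73 CPM, without overlap. Its difference of -0.96 (SE 0.28) had an adjusted p in edgeR of 0.184 without and 0.0534 with the block, and 0.0468 by DESeq2. Mmp24 was at 2.42, 6.24 and 4.47 CPM in control and 0.363, 1.43 and 1.41 CPM in knockdown cells, with a difference of -2.05 (SE 0.61, adjusted p 0.19, with the block 0.0841, by DESeq2 0.0269). Col16a1 was higher in knockdown cells by 2.58 (SE 0.80, adjusted p 0.209), on 2, 2 and 0 counts in control and 4, 11 and 14 in knockdown libraries.

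None of the other abundant genes passed edgeR in quiescent knockdown cells, with or without the block. Col7a1 was higher in all 3 experiments (by 0.08, 0.73 and 1.55), with a difference of 0.63 (95% interval -0.17 to 1.44, adjusted p 0.555, with the block 0.147). Adamts1 was also higher in all 3, with a difference of 0.33 (95% interval -0.07 to 0.72, adjusted p 0.525, with the block 0.225). Timp2 differed by 0.12 (95% interval -0.46 to 0.69), Mmp14 by -0.02 (-0.63 to 0.59), Mmp11 by 0.11 (-0.31 to 0.52) and Col18a1 by -0.25 (-0.90 to 0.40). Mmp15 differed by -0.29 and its interval was wider (-1.49 to 0.91). Of the genes that act on collagens and proteases, 0 passed without the block in this comparison, and with it (background 3.55%) Sparc (1.55, adjusted p 0.00501) and Hpn, a membrane serine protease (1.41, 0.0307), were higher and Pcsk6 (-1.21, 0.0243) and Serpine2, a protease inhibitor (-1.28, 0.0202), lower. These 4 were chosen after their values were seen.

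Markers of urothelium summed to 13150 to 19950 CPM in quiescent control and 22370 to 24130 CPM in quiescent knockdown cells. Of their 17 tested genes, 0 passed edgeR without the block (background 0.435%). With the block 1 passed (5.88%, background 3.55%), Pparg, which was lower. Leukocyte markers also moved with this contrast: their sum was 39.7 to 61.9 CPM in quiescent control and 110 to 170 CPM in quiescent knockdown cells. Most of the leukocyte sum was 1 of the 8 genes, Csf1r (log2 fold change 1.57, adjusted p 0.128, with the block 0.0385). Cd68 differed by -0.23 (adjusted p 0.93), Emr1 and Cd3e were at 0 and Ptprc was at no more than 0.408 CPM. The part of either marker list in the values above was not tested.

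**Figure D4:**
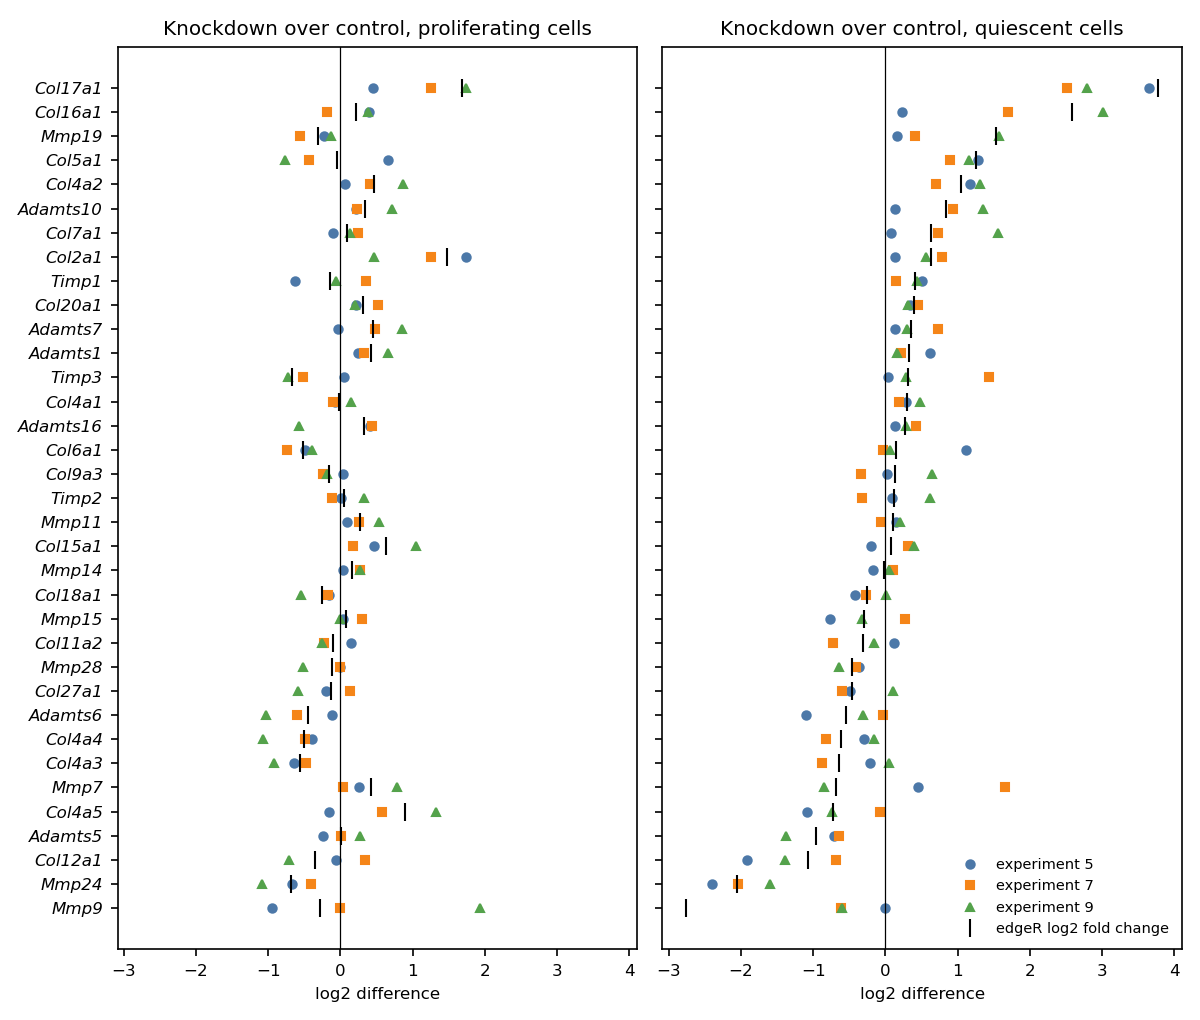
Log2 difference of knockdown over control within each experiment (points) and the edgeR log2 fold change (bar) for the 35 tested genes, in proliferating (left) and quiescent cells (right). Col17a1 and Col4a2 lie to the right of 0 in all 3 experiments of quiescent cells, Adamts5 and Mmp24 to the left.

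In proliferating cells the knockdown gave no call. Of the 35 genes 0 passed edgeR with or without the block (background 0.0242% for each) and 0 of 46 passed the DESeq2 Wald test (background 0.0887%). Unadjusted, 2 genes had p under 0.05 in the fit lacking the block (5.71%, against 1.84% of all tested genes), Adamts1 (0.42, p 0.0379 in edgeR) and Col2a1 (1.47, p 0.0434 in edgeR, 1 to 11 counts per library), and 5 with it (14.3%, against 5.2% of all), those 2 and Col4a2, Col15a1 and Col17a1, all higher. Col2a1 and Col15a1 were named after their values were seen. Col4a2 was at 152, 222 and 141 CPM in control and 159, 295.5 and 257.5 CPM in knockdown cells, a difference of 0.47 (SE 0.25, 95% interval -0.09 to 1.02). The groups overlapped. Timp2 differed by 0.05 (-0.53 to 0.62) and Mmp14 by 0.16 (-0.45 to 0.78).

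Whether the knockdown acts differently in the 2 states was tested as an interaction. It gave 0 of the 35 genes in edgeR without or with the block and 0 of 69 by the DESeq2 Wald test (background 0% for each). Before adjustment 2 genes had p under 0.05 (5.71%, against 1.77% of all tested genes), and 5 once blocked (14.3%, against 4.76%). The 2 were Adamts5 (-0.96, SE 0.40, p 0.0329 in edgeR) and Col16a1 (2.37, SE 0.99, p 0.0348 in edgeR). The 3 added by the block were Col4a2 (0.63, p 0.0238 in blocked edgeR), Col17a1 (2.05, p 0.0346) and, the other way, Col4a5 (-1.29, p 0.0256). Their adjusted p with the block was 0.974, 0.999 and 0.981. Without the block the interaction was 0.58 (SE 0.36) for Col4a2 and 2.10 (SE 1.13) for Col17a1. A larger effect of the knockdown in quiescent cells was thus not shown for either after adjustment.

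The ratio of the 2 chains of the main collagen IV trimer was also compared. Per kb of exon, Col4a2 over Col4a1 was 0.716, 0.773 and 0.822 in proliferating control cells and 0.915, 0.872 and 1.06 in quiescent control cells. With Stag2 knocked down it was 0.785, 1.11 and 1.35 while proliferating and 1.70, 1.24 and 1.87 in quiescence. All 3 quiescent knockdown libraries were above all 3 quiescent control libraries, by a factor of 1.67, and an exact two-sided permutation test of the log2 ratio gave p = 0.1, the smallest that 3 against 3 libraries allow. Quiescence in control cells gave a factor of 1.23 (exact permutation p = 0.1), the knockdown in proliferating cells 1.37 (exact permutation p = 0.2) and quiescence in knockdown cells 1.5 (exact permutation p = 0.2). The ratio was higher in each of the 3 experiments in all 4 comparisons, a pairing that the permutation test does not use. These 4 tests were made on a ratio noticed in the same data, and the design cannot reach 0.05.

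Col4a4 over Col4a3, the pair on either side of the 71 bases shown above, was 1.63, 1.16 and 2.57 in proliferating and 1.12, 0.848 and 1.18 in quiescent control cells. Under the Stag2 hairpin it was 1.94, 1.16 and 2.33 and then 1.05, 0.880 and 1.02. The 2 genes varied together across experiments: Col4a3 was at 25.9, 129 and 16.3 CPM and Col4a4 at 30.9, 117 and 20.5 CPM in quiescent control cells, with experiment 7 highest for both. This pair was described after its values were seen, and C430014B12Rik overlaps Col4a3 on the other strand.

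**Figure D5:**
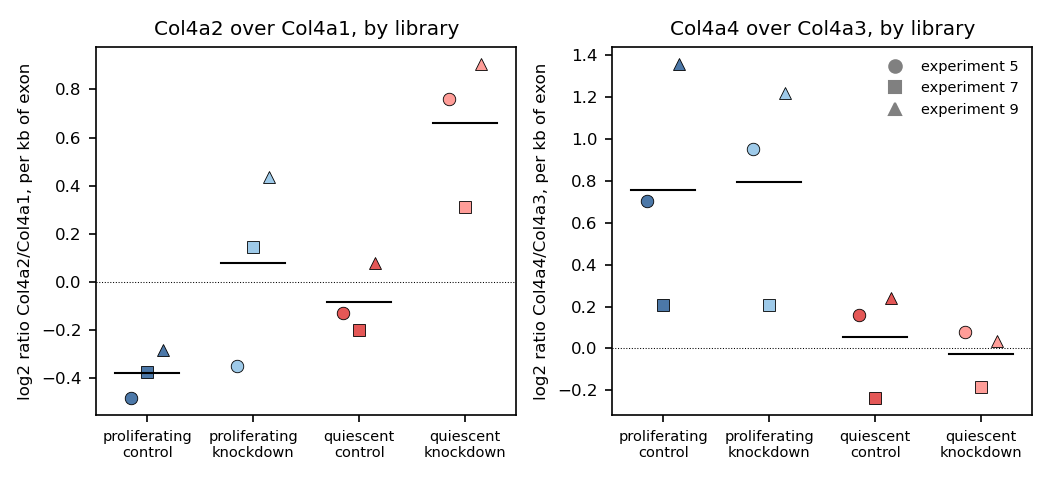
Log2 ratio of the 2 genes of each head-to-head pair in every library (CPM per kb of exon), Col4a2 over Col4a1 on the left and Col4a4 over Col4a3 on the right, by group, with the mean as a line and the experiment as marker shape. The quiescent knockdown libraries reach Col4a2 to Col4a1 ratios of 1.24 to 1.87, above the 0.872 to 1.06 of quiescent control.

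The experiments differed widely in many of these genes. The spread between the 3 experiments, each as its mean deviation from the group means in log2 CPM, had a median of 0.81 over the 35 genes and 0.33 over all tested genes, and exceeded 1 for 40% of the 35 and 10.6% of all. Timp3 had the widest spread (4.07), with experiment 9 highest, and Mmp7 (2.58) and Col4a5 (2.49) were also highest in experiment 9. Col4a3 (3.03) and Col4a4 (2.32) were highest in experiment 7 and lowest in experiment 9, while Col27a1 (2.39) and Adamts16 (2.37) were highest in experiment 5 and lowest in experiment 9. The narrowest among the abundant genes were Mmp11 (0.31) and Adamts1 (0.32). As each experiment is 1 batch, the batch and the culture cannot be told apart.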

How the data were processed

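The authors deposited raw counts, whole numbers of reads per gene symbol and library in 1 table, with no normalization. Per the submitters' processing notes, Bowtie, TopHat, HTSeq and DESeq2 were used with build mm10; their roles, the annotation and the strand setting are not given in the sources used here. Per the labels' protocols, polyadenylated RNA was sequenced with a stranded kit, with ERCC RNA added; no ERCC row is in the table used. Unless strand was used in counting, reads of overlapping genes on opposite strands cannot be told apart. Strand does not separate genes that overlap on the same strand, such as Timp2 and Cep295nl.

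The tests used edgeR 4.0.16 (with limma 3.58.1, in R 4.3.3): filterByExpr (minimum count 10, 12406 genes kept), TMM, 4 group means on all 12 libraries, glmQLFit and glmQLFTest, and Benjamini-Hochberg adjustment over these genes; a call is an adjusted p under 0.05. The filter asks for enough counts in 3 libraries, so a gene near the floor could be tested through the groups where it was high. Col17a1 passed it only through quiescent knockdown, Col9a3 and Col11a2 only through quiescent libraries, and Mmp9 and Col16a1 only through proliferating ones. SE is the log2 fold change over the root of F. CPM uses TMM-scaled totals, and log2 CPM a prior count of 2. A single GENCODE M21 exon length was found for 89.6% of symbols. Totals of 14524429 to 21987539 put the floor of 3 counts at 0.136 to 0.207 CPM; floors and the 95% intervals of count ratios cover counting error only, while those of log2 differences come from the edgeR SE and cover the spread between libraries. Replicates of a group never held identical values (chi-square per degree of freedom 38.3 to 104). The labels do not say that replicates are separate cultures, so p-values measure the spread between these libraries.

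The pairing comes from the labels, which give each experiment number its own batch. Deviations from group means correlated between libraries of 1 number (mean r 0.526, lowest 0.225, highest 0.789, 18 pairs). Between numbers the mean r was -0.259 (lowest -0.612, highest 0.312, 36 pairs). As the deviations of a group sum to 0, a positive first mean pushes the second below 0, which adds no separate evidence. The replicate block adds this number as a term. The biological coefficient of variation was 0.261 without and 0.161 with it.

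The 28 named members are those called in any of the 5 contrasts, those called after knockdown only with the block, and the 2 most abundant of each role group; of the related lists, the called genes with the 3 largest changes each way. Members and lists were chosen with earlier results of these data known. Alternatives were the block, median-of-ratios factors, the DESeq2 1.42.0 Wald test, no low-count filter, a mean count of at least 50, fits to the libraries of a contrast, and leaving out each library or experiment. The test script was also run on simulated data that held no differences between experiments, so that run does not cover the effect of leaving out the block.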

Additional observations from a re-analysis of the deposited data

Results flagged for a closer look

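Mmp19, a secreted metalloproteinase at trace level, went in opposite directions with the knockdown in the 2 states: all 3 experiments were lower in proliferating cells (log2 differences -0.23, -0.56 and -0.13) and all 3 higher in quiescent cells (0.16, 0.41 and 1.57). The interaction was 1.83 (SE 1.44, edgeR adjusted p 1), on 15, 4 and 9 counts in proliferating control, 12, 2 and 8 in proliferating knockdown, 1, 1 and 5 in quiescent control and 2, 2 and 19 in quiescent knockdown libraries. The difference between the states was larger than its SE and did not pass the test.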

How the results depend on the processing

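The number of genes called with quiescence was 13 in control and 10 in knockdown cells (background 20.0% and 18.4% of all tested genes). With the replicate block it was 23 and 21 (background 35.3% and 33.0%). The blocked fits without 1 experiment gave 14 to 22 in control cells. The background there was 33%, 15.9% and 16.8% without experiment 5, 7 and 9. In knockdown cells these fits gave 17, 14 and 16 in that order (background 29.3%, 17.9% and 16.5%). The fits without 1 library called 6 to 13 genes in control (background 11% to 24.4%) and 4 to 11 in knockdown cells (9.45% to 19.1%). The knockdown in quiescent cells gave 0 genes (background 0.435%), 2 with the block (3.55%) and 4 by the DESeq2 Wald test (2.93%). It gave 0 to 1 in the blocked fits without 1 experiment (background 0.106% to 0.808%). Without 1 library it also gave 0 to 1 (0.0399% to 0.508%). The knockdown in proliferating cells and the interaction gave 0 under all alternatives run (background at most 0.0887% and 0%). The other settings (median-of-ratios factors, no low-count filter, a mean count of at least 50, only the libraries of a contrast, and DESeq2 for quiescence) stayed within 1.5 times. For quiescence the background in these settings was 12.4% to 24.9% in control and 11.4% to 23.2% in knockdown cells. No named value that passed a test changed sign. The cause of these shifts was not tested. Each arm has 3 libraries, and where 1 is left out the spread is shared with the other groups. At these depths the 36 untested genes, with 783 counts in all, could not be compared.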
